A study of Rattus norvegicus with 2 samples.

Results

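This account covers 8 genes of the complement system in cells of the meniscus, a crescent of fibrocartilage in the rat knee. C3, C1s, C1qa, C1qb, C1qc, Cfb, Serping1 and Clu were taken by gene symbol from the 25399 genes listed in the data. The study profiled single cells (Rattus norvegicus) with a 10x Genomics 3' kit after enzymatic digestion and a sort for viable cells. It gave 1 library of aged and 1 library of young meniscus, and the labels name no strain, sex, exact age or number of animals. Every difference below therefore lies between 2 libraries, no test was possible, and the 95% intervals cover counting error only.

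Complement is a chain of plasma and tissue proteins that tags and lyses targets. In the classical pathway the recognition protein C1q carries the proteases C1r and C1s, in the alternative pathway factor B (Cfb) forms the protease, and both pathways meet at C3. C1 inhibitor (Serping1) blocks C1r and C1s, and clusterin (Clu), a secreted chaperone, hinders assembly of the terminal membrane attack complex. Macrophages are a known main source of C1q, and fibroblasts and chondrocytes of joints are known to make other components locally.

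Cells were sorted by their own transcripts. The stromal gate took cells with no UMI (unique molecular identifier, 1 counted transcript) of the leukocyte gene Ptprc and at least 5 of decorin (Dcn) or chondroadherin (Chad), both matrix proteins, and held 530 aged and 188 young cells with medians of 5859 and 15561 UMIs. The Csf1r gate took cells with at least 1 UMI of Csf1r, the receptor for the macrophage growth factor CSF1, and held 590 and 483 cells with medians of 10157.5 and 9779 UMIs. Another 5 aged and 2 young cells met both rules and were kept apart. The gates were checked on markers that did not set them. The 12 stromal markers other than Dcn and Chad all had UMIs in the stromal gate of both libraries and summed to 20184.5 UMIs per 1000000 UMIs of the gate (CPM) in the aged and 69834 in the young library, against 297 and 759 CPM in the Csf1r gate. The 12 macrophage or monocyte markers other than Csf1r summed to 15822 and 24482 CPM in the Csf1r gate and to 376 and 212 CPM in the stromal gate, where Mrc1, Cd163, Folr2, Cx3cr1 and Marco were at 0. Marco was also at 0 in the Csf1r gate. Lyz2 alone gave 14909 aged and 23642 young CPM of the sums in the Csf1r gate. In the neutrophil gate described below the same markers summed to 16269 and 16008 CPM. This sum therefore sets the Csf1r gate apart from stroma but not from neutrophils. The libraries held 47228750 aged and 65051972 young UMIs, and 6085 and 8773 cells were kept. B lineage genes marked 2499 aged (41.1%) and 5930 young kept cells (67.6%), with medians of 2431 and 3458 UMIs, and these cells served as the measure of free RNA.

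The complement genes divided between the gates in the same way in both libraries. C1s, Serping1, Clu and Cfb were at least 2-fold higher in the stromal gate than in the Csf1r gate in the aged and in the young library, which is 4 of 8 genes beside 22.9% of 10334 genes with at least 20 summed counts in the aged and 20.3% of 10363 in the young library. C3, C1qa, C1qb and C1qc were at least 2-fold lower in stroma in both, beside 22.1% and 29.6% of all genes. The gates therefore split many genes, and the members' pattern is given as a description of where each was found. The stromal gate held 89.9% of all C1s UMIs of kept aged cells and 72.4% in young cells, 88.1% and 77.5% of Serping1, 88.9% and 70.9% of Clu, and 68.5% and 50% of Cfb. The Csf1r gate held 94.4% and 97.5% of C1qa, 94.9% and 98.1% of C1qb, and 94.9% and 98.4% of C1qc. Neither gate held most of the C3 UMIs, with 3.73% and 0.190% in the stromal gate and 44.2% and 26.8% in the Csf1r gate. In the aged library the Csf1r gate still held more C3 UMIs (1102) than the neutrophil gate described below (890).

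**Figure D1:**
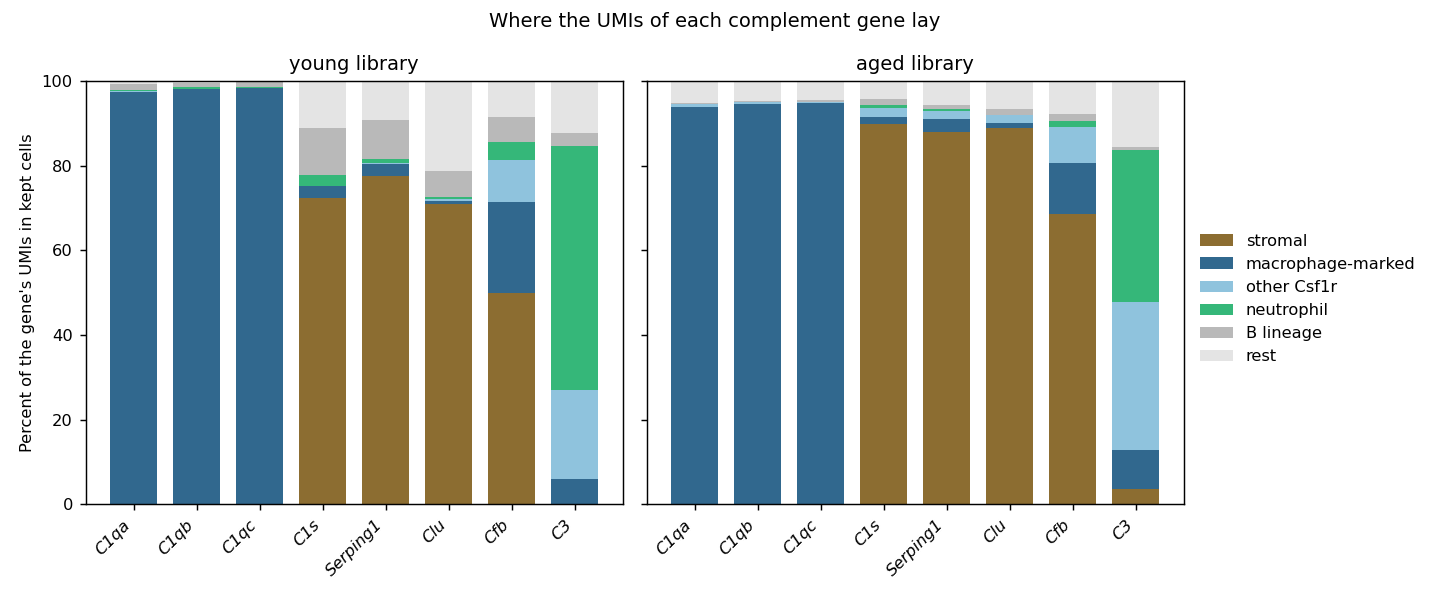
Stacked bars give the percent of each gene's UMIs in kept cells (y axis) that lay in each gate, with the 8 genes on the x axis and 1 panel per library. C1q fills the macrophage-marked part, C1s, Serping1 and Clu the stromal part (70.9% to 89.9%), and C3 the neutrophil part (35.7% of aged and 57.6% of young UMIs) with the other Csf1r cells.

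C1qa, C1qb and C1qc encode the A, B and C chains that assemble into C1q, and all were read almost only from Csf1r cells that also carried a macrophage gene. The Csf1r gate was divided by the presence of a UMI of Mrc1, Adgre1, Cd163 or Folr2 into macrophage-marked cells (228 aged, 160 young) and other Csf1r cells (362 and 323). In RefSeq's GRCr8 annotation the 3 genes neighbour each other on chromosome 5. Promoter sequences were available for C1qa, C1qb and C3, and the 250 bases before the start of C1qa and C1qb are shown because both genes were read from the same cells. Capitals mark GGAAGT, the core bound by ETS factors such as PU.1, and TGCTGA, the MAF half-site, on either strand, and these letters do not overlap. The windows lie at chr5:154419934-154420183 for C1qa and chr5:154407828-154408077 for C1qb, both on the minus strand.
C1qa: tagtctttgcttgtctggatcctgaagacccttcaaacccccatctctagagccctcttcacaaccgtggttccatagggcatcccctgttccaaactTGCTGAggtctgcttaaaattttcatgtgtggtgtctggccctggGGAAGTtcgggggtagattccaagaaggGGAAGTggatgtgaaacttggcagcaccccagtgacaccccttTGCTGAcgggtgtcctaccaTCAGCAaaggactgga
C1qb: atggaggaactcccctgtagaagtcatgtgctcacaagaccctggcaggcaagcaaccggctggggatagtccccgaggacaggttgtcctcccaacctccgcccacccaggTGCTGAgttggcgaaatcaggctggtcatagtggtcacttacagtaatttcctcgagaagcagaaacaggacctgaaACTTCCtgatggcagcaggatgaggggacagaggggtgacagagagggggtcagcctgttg
Of 33469 rat promoter windows of that length, 19.2% held GGAAGT and 15.1% held TGCTGA on at least 1 strand. A match describes letters in the window and is neither a bound site nor a cause.

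C1qa stood at 2379 CPM (5984 UMIs) in aged and 1269 CPM (2604 UMIs) in young macrophage-marked cells. C1qb stood at 2082 and 1179 CPM, and C1qc at 1973 and 987 CPM. The aged library was higher for all 3 chains, by 0.91 (95% interval 0.84 to 0.97), 0.82 (0.75 to 0.89) and 1.00 (0.92 to 1.07) on the log2 scale. Over the whole Csf1r gate the same ratios were 0.90 (0.83 to 0.96), 0.81 (0.74 to 0.88) and 0.99 (0.91 to 1.06), all short of 2-fold. The chains kept nearly the same proportions in both libraries, with 0.875 aged and 0.929 young C1qb UMIs per C1qa UMI and 0.829 and 0.778 C1qc UMIs per C1qa UMI. In the other Csf1r cells no chain exceeded 5.81 CPM in the aged or 1.13 CPM in the young library. The stromal gate held C1qa at 2.41 CPM in the aged library and at 0 UMIs in the young library, where the floor of 3 counts lies at 0.984 CPM, beside 1.53 and 1.35 CPM in B lineage cells. C1q in stroma was thus near the level of free RNA.

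The size of the C1q difference depends on scaling. The median of all genes in the Csf1r gate was -0.21 on the log2 scale, and TMM scaling added 0.22 to every ratio of that gate, which carried C1qa to 1.11, C1qb to 1.02 and C1qc to 1.20. Leaving out the 8% of cells with the highest doublet scores lowered the 3 ratios to 0.58, 0.47 and 0.69. All alternatives kept all 3 chains higher in the aged library.

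The ratios above sum over cells with and without C1q, and the libraries differed in how many Csf1r cells carried C1q. Single cells were either rich in C1q or lacked it: at least 5 C1q UMIs were present in 104 of 590 cells of the aged library (17.6%, 14.6 to 20.9) and in 38 of 483 of the young one (7.87%, 5.63 to 10.6), while 464 and 421 cells had none and only 22 and 24 lay between. That limit of 5 was set with the data known. Of macrophage-marked cells, 44.3% aged and 23.75% young had at least 5 C1q UMIs. Within the C1q-rich cells of the gate the 3 chains together stood at 20113 CPM aged and 14871 CPM young. The summed ratios above are therefore not the difference per C1q-rich cell. The C1q-rich cells held a median of 129.5 C1q UMIs in the aged and 163 in the young library, at median depths of 5889.5 and 11091 UMIs, and up to 542 and 545 in 1 cell. All 3 chains were found together in 97 aged and 36 young cells of the gate. In aged cells with no Csf1r UMI but a macrophage gene, C1qa still reached 246 CPM, against 2.41 CPM in such young cells, so the Csf1r rule left out some aged C1q cells.

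**Figure D2:**
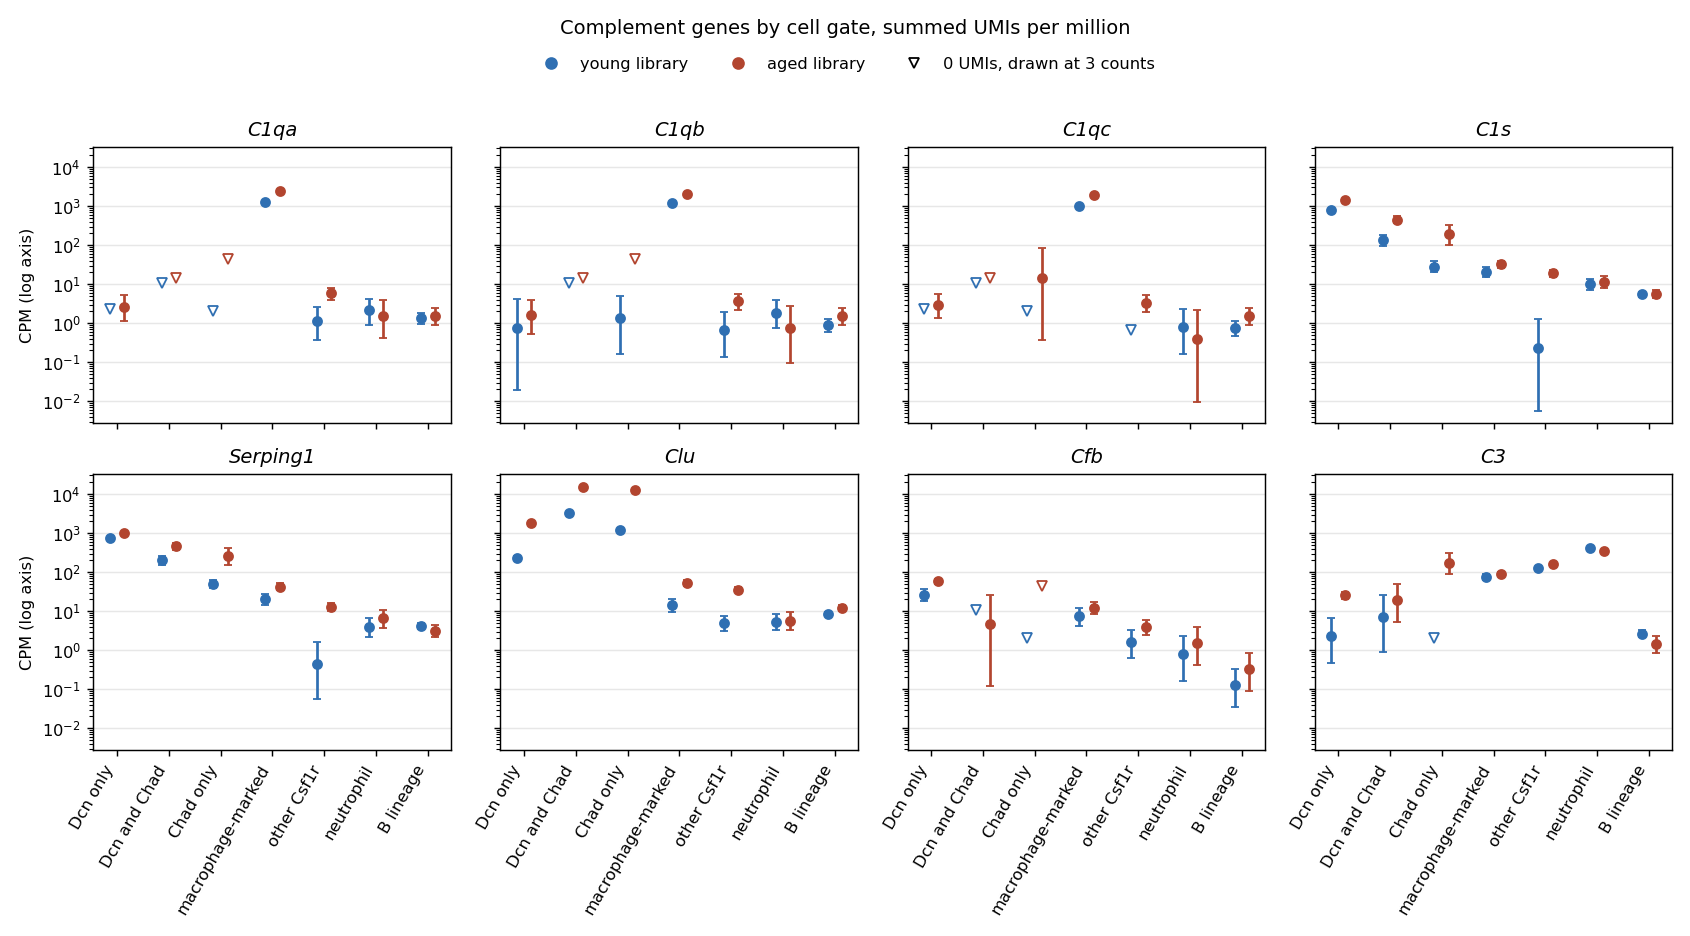
Each panel gives 1 gene's CPM (log axis) in 7 gates on the x axis, with a circle for each library, exact Poisson 95% intervals and an open triangle at 3 counts where no UMI was found. C1q is high in macrophage-marked cells alone among these gates, C1s and Serping1 are highest in Dcn-only cells, Clu is highest in the Chad-bearing gates, and C3 is highest in neutrophils.

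C1s, the protease that C1q activates through C1r, was a gene of Dcn-bearing stroma. It stood at 1308 CPM (4335 UMIs) in the aged and 365 CPM (1113 UMIs) in the young stromal gate, a log2 ratio of 1.84 (1.75 to 1.94). Serping1, which encodes its inhibitor, stood at 979 CPM (3244 UMIs) and 358 CPM (1091 UMIs), a ratio of 1.45 (1.35 to 1.55). Protease and inhibitor were read from the same cells, with both present in 459 of 530 aged and 78 of 188 young stromal cells. Of stromal cells, 90.8% in the aged and 50.5% in the young library had a C1s UMI. After each cell was thinned to 2000 UMIs, which left out 32 aged and 0 young stromal cells as too shallow, the shares were 82.7% and 31.9%, beside 0.569% and 0.266% of B lineage cells (917 and 294 left out). For Serping1 these stromal shares were 91.5% and 60.6% before and 78.1% and 36.7% after thinning, beside 0.126% and 0.195% in B lineage cells.

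The make-up of the stromal gate differed between the libraries. Cells with at least 5 Dcn UMIs and fewer than 5 of Chad (Dcn only) numbered 493 aged and 73 young, the reverse kind (Chad only) numbered 11 and 97, and 26 and 18 cells passed both limits. Dcn-only cells held C1s at 1393 CPM aged and 788 CPM young, a ratio of 0.82 (0.72 to 0.92), below 2-fold. Serping1 stood at 1031 and 731 CPM there, a ratio of 0.50 (0.39 to 0.60). In the cells past both limits the ratios stayed above 2-fold, at 1.75 (1.18 to 2.34) for C1s and 1.15 (0.67 to 1.65) for Serping1. In Chad-only cells C1s was lower than in Dcn-only cells, at 191 CPM in the aged library, where all 13 UMIs came from 1 cell, and at 28.1 CPM (41 UMIs) in the young library. Dcn itself was higher in aged Dcn-only cells, at 18753 against 7910 CPM, at median depths of 5835 and 17579 UMIs. Other markers differed there too, with Col1a1 at 2580 CPM aged and 50722 CPM young, Col3a1 at 4365 and 42760, and Prg4 at 4850 and 1087. In Chad-only cells Col2a1 stood at 58.9 CPM (4 UMIs) aged and 8763 CPM young, and Prg4 at 36213 and 11636 CPM. Ratios within a part of the gate may thus still compare unlike cells, which was not tested.

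Clu was higher in Chad-bearing than in Dcn-only stroma in both libraries, opposite to C1s and Serping1. Over the whole gate it stood at 2929 CPM (9705 UMIs) in the aged and 975 CPM (2973 UMIs) in the young library, a log2 ratio of 1.59 (1.53 to 1.65). Dcn-only cells held 1838 CPM aged and 235 CPM young, a ratio of 2.97 (2.80 to 3.14). Chad-only cells held 13008 CPM in 11 aged cells and 1208 CPM in 97 young cells, a ratio of 3.43 (3.31 to 3.55). Cells with both held 15445 and 3261 CPM, a ratio of 2.24 (2.14 to 2.35). In each of these parts of the stromal gate Clu was more than 4-fold higher in the aged library. This difference was larger than over the whole gate, whose young cells were more often Chad-bearing. The Dcn-only and Chad-only cells of the 2 libraries also differed in collagen markers, so these ratios are not between matched cells. Clu was detected in 11 of 11 aged and 64 of 97 young Chad-only cells, which held up to 209 UMIs aged and 337 young. Cells with both Dcn and Chad held up to 647 UMIs in the aged and 278 in the young library. Outside stroma, Clu was also read in endothelial-marked cells, with 475 CPM over 42 cells of the aged library and 347 CPM over 22 of the young library.

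**Figure D3:**
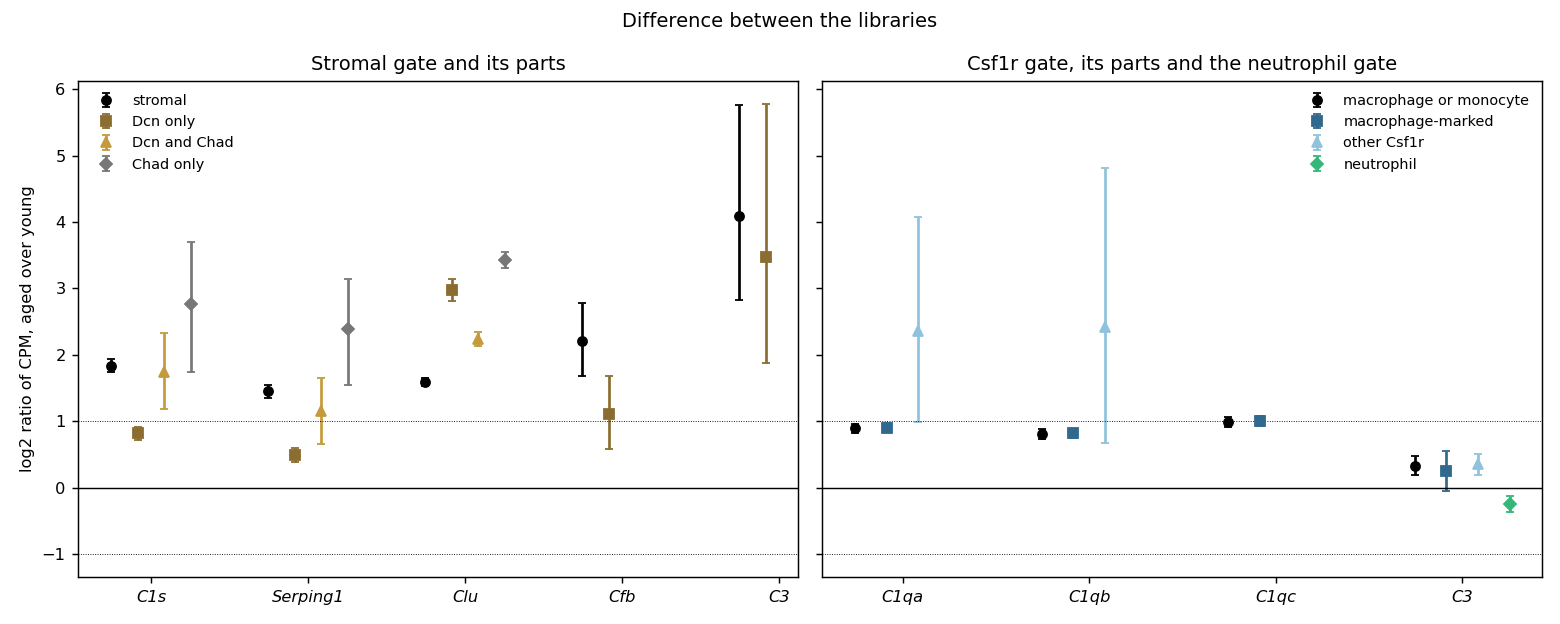
Points give the log2 ratio of CPM, aged over young (y axis), with exact 95% counting intervals, for stromal members by kind of stroma (left) and for C1q and C3 in the Csf1r gate, its parts and the neutrophil gate (right), where the 2 libraries held at least 20 UMIs together and neither was at 0. Dotted lines mark 2-fold; C1s and Serping1 lie nearer 0 in Dcn-only cells (0.82 and 0.50) than in the whole stromal gate, Clu lies farther from it, and C3 in neutrophils lies below 0.

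Cfb, the catalytic subunit of the alternative pathway convertase, was read mainly from Dcn-only cells. It stood at 53.1 CPM (176 UMIs) in the aged and 11.5 CPM (35 UMIs) in the young stromal gate, a ratio of 2.21 (1.68 to 2.78). In Dcn-only cells it stood at 57.7 and 26.7 CPM, a ratio of 1.11 (0.58 to 1.68), and in Chad-only cells it had 0 UMIs in both libraries. There the floor of 3 counts lies at 44.1 CPM in the few aged and 2.06 CPM in the young cells. It was detected in 25.1% of aged and 14.4% of young stromal cells, and in 10.2% and 1.06% after thinning. Macrophage-marked cells held Cfb at 12.3 CPM (31 UMIs) and 7.31 CPM (15 UMIs), spread over 31 aged and 14 young cells, beside 0.339 and 0.129 CPM in B lineage cells. The data list Cfb under a pair of gene identifiers, of which ENSRNOG00000000419 held every UMI and ENSRNOG00000051158 none.

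C3, the protein on which all pathways converge, was highest in granule-rich neutrophils and was also read in Csf1r cells without C1q. Cells in which S100a8 and S100a9 made up at least 2% of UMIs (748 aged, 985 young) held C3 at 341 CPM (890 UMIs) and 404 CPM (1514 UMIs). Neutrophils with at least 5 UMIs of the granule genes Camp, Ngp and Ltf together held 374 and 425 CPM, and those with fewer held 132 and 204 CPM. Of granule-rich cells, 60.3% in the aged and 75.8% in the young library had a C3 UMI, or 45.7% and 56.8% after thinning with 55 and 67 cells left out, beside 0.379% and 0.639% of thinned B lineage cells. The log2 ratio of the neutrophil gate, aged over young, was -0.25 (-0.37 to -0.12).
The 250 bases before the start of C3, the member that stood apart from the rest in its cells, lie at chr9:2201340-2201589 on the minus strand of GRCr8 (RefSeq). Capitals mark TTGCNNAA, a motif of C/EBP factors, which regulate genes of myeloid and acute-phase cells.
C3: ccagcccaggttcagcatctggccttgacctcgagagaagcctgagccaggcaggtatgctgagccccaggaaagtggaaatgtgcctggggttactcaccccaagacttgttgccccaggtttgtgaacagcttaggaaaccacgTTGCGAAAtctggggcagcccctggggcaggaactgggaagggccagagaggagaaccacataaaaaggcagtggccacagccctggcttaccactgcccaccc
The motif begins 104 bases before the start, and 9.22% of all windows held it on at least 1 strand. The C3 window also held TGCTGA on each strand, left in lower case, and held neither GGAAGT, nor the NF-kB motif searched (in 4.36% of windows), nor the interferon-stimulated response element (in 3.41%).

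Within the Csf1r gate, C3 and C1q were found in different cells. Without a C1q UMI, aged cells held C3 at 155 CPM and young ones at 123 CPM, and with at least 5 they held 17.4 CPM (14 UMIs) and 4.24 CPM (2 UMIs). At least 1 C3 UMI was present in 274 of 464 aged (59.1%) and 236 of 421 young cells (56.1%) without C1q, and in 7 of 104 (6.73%) and 1 of 38 (2.63%) C1q-rich cells. After thinning the shares were 23.5% and 22.1% against 2.97% and 2.63%, so the separation was present at equal depth. The Csf1r gate as a whole held C3 at 137 CPM aged and 109 CPM young, a ratio of 0.34 (0.20 to 0.47), and its neutrophil markers summed to 2736 and 9863 CPM. The part of neutrophil RNA in the C3 of that gate was not tested.

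**Figure D4:**
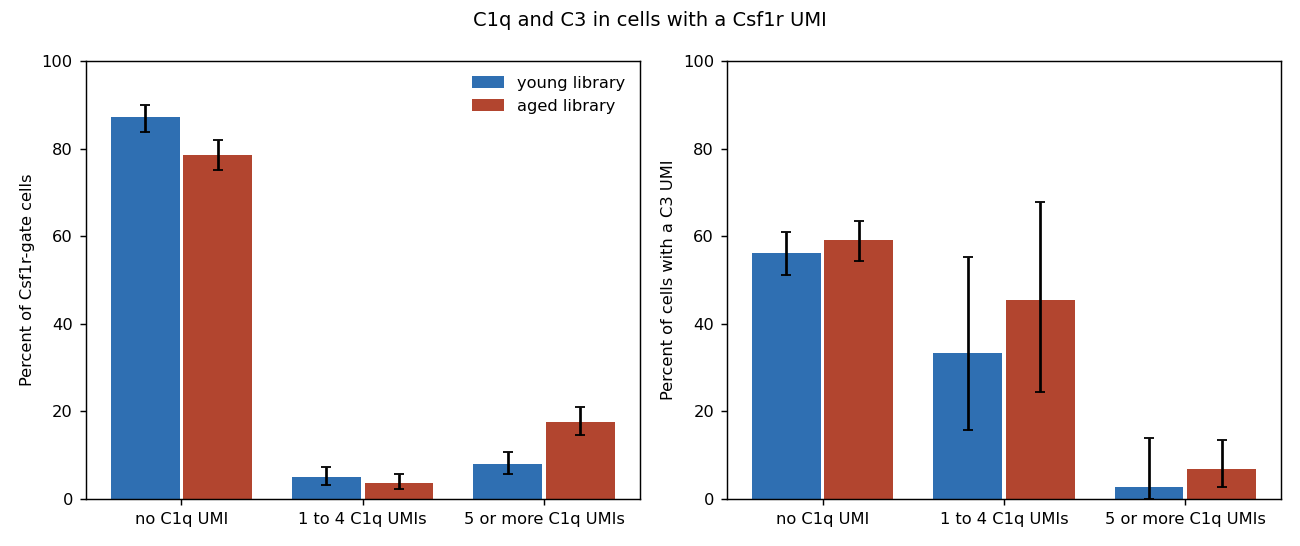
Bars give, for Csf1r-gate cells with no, 1 to 4, or at least 5 C1q UMIs (x axis), the percent of the gate in each class (left y axis) and the percent of its cells with a C3 UMI (right y axis), with exact binomial 95% intervals, by library. C1q-rich cells form 17.6% of the aged and 7.87% of the young gate, and C3 was found in 6.73% and 2.63% of them against over 56% of cells without C1q.

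Few stromal cells held C3, and most of its stromal UMIs came from the aged library. Among stromal cells with no C1q UMI, 5.75% aged (3.91 to 8.10) and 2.16% young (0.592 to 5.44) had C3. These intervals overlap. The aged stromal gate held 93 C3 UMIs (28.1 CPM) in 30 of 530 cells, and the young gate held 5 UMIs (1.64 CPM) in 4 of 188 cells, a log2 ratio of 4.10 (2.82 to 5.75). The 3 richest aged cells held 38 of the 93 UMIs, and the 1 with 12 UMIs was the only Chad-only cell with C3, so the 177 CPM of the 11 aged Chad-only cells came from it alone. Dcn-only cells held 77 aged and 3 young UMIs, a ratio of 3.47 (1.87 to 5.78). The young level was below that of B lineage cells (2.68 CPM), whereas the aged level was above the 1.44 CPM of aged B lineage cells. Neutrophil markers summed to 1344 CPM in aged and 1102 CPM in young stroma, against 310306 and 378324 CPM in the neutrophil gate, where C3 was 341 and 404 CPM.

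Counted over the stromal gate, 5 of the 5 members with at least 20 summed counts (C3, C1s, Cfb, Serping1 and Clu) were at least 2-fold higher in the aged library, beside 10.4% of 9312 genes, and 0 were lower, beside 8.3%. Their median log2 ratio was 1.84, against 0.07 for all genes. In Dcn-only cells 3 of 5 passed (C3, Cfb and Clu), beside 9.17% of 8530 genes, and 0 were lower, beside 6.71%, with a median of 1.11 against -0.02. In Chad-only cells C1s, Serping1 and Clu passed, 3 of 3 beside 22.8% of 5370 genes, and 0 were lower, beside 14.2%. There 1 aged cell held all 13 C1s and 17 of 18 Serping1 UMIs, and without it, a choice made after the data were seen, C1s was at 0, Serping1 was at 18.1 CPM against 50.8 CPM in the young library (-1.49) and Clu kept a ratio of 3.38. With both Dcn and Chad the same 3 genes passed, beside 12.5% of 2577 genes, and 0 were lower, beside 17.3%. Markers of red cell precursors summed to 7601 CPM in aged and 1084 CPM in young stroma. Cells just inside the stromal limit, with 5 to 7 UMIs of Dcn or Chad, held C1s at 405 CPM and Clu at 2248 CPM in 23 aged cells, and those just outside it, with 3 or 4, held 148 and 2219 CPM in 14 aged cells.

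In the Csf1r gate 3 of 8 members were at least 2-fold higher in the aged library, beside 5.18% of 10075 genes, and 0 were lower, beside 9.04%. These were C1s, at 23.0 CPM aged and 6.79 CPM young, Serping1, at 22.1 and 6.79 CPM, and Clu, at 41.2 and 7.87 CPM, and all were among the members higher in stroma. Few cells carried them. C1s was detected in 26 of 590 cells of the aged gate and in 4 of 483 of the young gate, and 41 of the 44 young C1s UMIs came from 1 cell. When 20 aged cells and 1 young cell with at least 2 Dcn UMIs were left out, a choice made after the data were seen, C1s fell from 185 to 10 UMIs in the aged and from 44 to 3 in the young library, Serping1 from 177 to 7 and from 44 to 6, and Clu from 331 to 16 and from 51 to 48. The count of higher members was then 0, with C1s under the minimum of 20 counts, and Clu had a ratio of -1.85 (-2.77 to -1.01). Cfb was less tied to those cells, with 45 of 53 aged and 22 of 22 young UMIs left.

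Csf1r cells with 1 Csf1r UMI, just inside the limit of that gate, held C1qa at 94.7 CPM in 184 aged cells and 108 CPM in 151 young cells. Those with more held 1001 CPM over 406 cells in the aged library and 491 CPM over 332 in the young library. C3 differed little by this limit, at 130 and 140 CPM in the aged library and 104 and 110 CPM in the young library.

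Of 57 other complement genes listed, 50 were in the data, and 16 had at least 20 summed counts in stroma. Of those 16, 5 were at least 2-fold higher in the aged library, beside 10.4% of all genes, and 0 were lower, beside 8.3%, with a median log2 ratio of 0.52 against 0.07. C1r, the partner protease of C1s, was likewise high in Dcn-only cells but differed less between the libraries than C1s. It stood at 1295 CPM aged and 514 CPM young in stroma (1.33, 1.25 to 1.42), and at 1390 and 1087 CPM in Dcn-only cells. C4b, a substrate of C1s, stood at 64.9 CPM (215 UMIs) and 10.2 CPM (31 UMIs), a ratio of 2.67 (2.13 to 3.27), and since C4a and C4b are near-identical copies the assignment of these reads is uncertain. Thbd (thrombomodulin) stood at 117 and 28.9 CPM in stroma. Both genes differed less in Dcn-only cells, where C4b stood at 70.5 and 22.9 CPM and Thbd at 126 and 62.5 CPM. The scavenger receptor Colec12 stood at 375 and 283 CPM in stroma, and the receptor Lrp1, which takes up complement-marked material, at 692 and 449 CPM. Among membrane regulators Cd55 stood at 72.4 and 63.7 CPM, Cd59 at 124 and 135 CPM and Cr1l at 82.4 and 47.2 CPM. In Dcn-only cells Cd55 (76.4 against 142 CPM, -0.89) and Cd59 (128 against 217 CPM, -0.76) were lower in the aged library.

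In the Csf1r gate 24 of the other complement genes had at least 20 summed counts, of which 4 were at least 2-fold higher in the aged library, beside 5.18% of all genes, and 1 lower, beside 9.04%, with a median log2 ratio of 0.09 against -0.21. Cfd, the protease that activates factor B, stood at 398 CPM aged and 185 CPM young (1.11, 1.01 to 1.20), and at 3102 and 1667 CPM in C1q-rich cells. C6, a subunit of the terminal complex, stood at 56.3 and 11.7 CPM (2.26, 1.91 to 2.63). Of its UMIs in that gate, 452 of 452 aged and 75 of 76 young lay in macrophage-marked cells. Fcnb, a ficolin that starts the lectin pathway, was read in both parts of the gate. It stood at 3067 and 3616 CPM in other Csf1r cells and lower, at 1636 and 2015 CPM, in macrophage-marked cells. Fcna stood at 426 and 290 CPM in macrophage-marked cells and at 50.4 and 56.0 CPM in the others. Properdin (Cfp), which stabilises the alternative convertase, was read in the Csf1r gate (138 and 159 CPM) and in neutrophils (162 and 230.5 CPM). Of the receptors, C5ar1 stood at 84.2 and 123 CPM in the Csf1r gate and at 242 and 204 CPM in neutrophils, and Itgb2, a subunit of complement receptors, at 135 and 179 CPM and at 432 and 427 CPM. C1qbp stood at 364 and 296 CPM and calreticulin (Calr), a ligand of C1q, at 709 and 798 CPM in the Csf1r gate.

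Over 24 sums of a gate and a library, the genes with the most similar pattern were sought among 3331 genes by Pearson's r of log2(CPM + 10), as a description. C1qa was nearest to C1qc (r = 0.997), C1qb (0.995) and Folr2 (0.95), C3 to Il1rn (0.94), Osm (0.94) and C5ar1 (0.94), Cfb to Lrrn4cl (0.97), Has1 (0.96) and Cyp1b1 (0.93), and Clu to Tnfrsf12a (0.96), Foxc1 (0.94) and Igfbp7 (0.94). The sums of a library share its depth and free RNA. Sums of fewer than 20 cells were left out, among them aged Chad-only cells (11) and young cells with both Dcn and Chad (18).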

How the data were processed

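Per the file headers and the submitters' processing notes, the authors ran Cell Ranger 6.1.1 and deposited UMI counts, whole numbers per gene and barcode, not normalised. The genome build is not given in the sources used here. A barcode was kept when 500 or more genes were detected and 13 mitochondrial genes gave no more than 20% of its UMIs (6085 of 8422 aged, 8773 of 9914 young barcodes). Of the barcodes, 18 occurred in both libraries. Scrublet (scanpy 1.11.5) called 0 and 3 doublets, too few to be a working call, so doublets stayed in the main values, and the cells with the highest 8% of scores were dropped in an alternative.

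Raw counts were summed per library and gate and scaled to 1000000 UMIs (CPM). Ratios carry exact conditional binomial and shares exact Clopper-Pearson 95% intervals. A sum of 0 was set against a floor of 3 counts. A size of 2-fold among genes with at least 20 summed counts stands in for a call. Self-made data drawn from the real totals gave intervals that held the true ratio for 95.8% of 9112 unchanged genes in the stromal comparison, which checks the computation only.

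Members, lists, markers and tests were chosen with earlier results of these data known. Named were the 8 members, other listed complement genes reaching 50 CPM in the stromal or Csf1r gate of either library, and for C3, Cfb, Clu and C1qa the 3 genes most like them. One gene that met this rule is not reported here. The limits of the neutrophil, B lineage, endothelial and granule gates were set after the data were seen. Promoters are RefSeq's (GRCr8). Alternatives covered edgeR 4.0.16 TMM and DESeq2 1.42.0 scaling, other totals, cell filters, gate limits, gate parts, doublet scores, thinning, single-cell means and count minimum. Software was R 4.3.3 and, under Python 3.11.15, pandas 2.3.3, numpy 2.4.6 and scipy 1.17.1.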

Additional observations from a re-analysis of the deposited data

Results flagged for a closer look

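C3 differed between gates in the sign of its ratio, in the main values. Its log2 ratio, aged over young, was 4.10 in the stromal gate (93 against 5 UMIs) and 0.34 in the Csf1r gate (1102 against 705 UMIs), but -0.25 in the neutrophil gate (890 against 1514 UMIs) and -0.89 in B lineage cells (17 against 83 UMIs), which served as the measure of free RNA. The difference between these ratios was not tested, since each library is 1 sample. In the Csf1r gate the C3 ratio fell to -0.24 as the mean of single-cell CPM. The neutrophil and B lineage ratios were not put through the alternatives.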

How the results depend on the processing

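With 1 exception, C3, C1s, Cfb, Serping1 and Clu kept the direction of their stromal ratio between the libraries in every alternative with a value. Serping1 turned to -1.49 in Chad-only cells once 1 aged cell was left out. The C1q chains kept their direction too, but rest on at most 10 UMIs there and say little about it. In the main values C1qa and C1qc were at 0 in young stroma, so their ratios were bounds set by the floor. C1qb, at 5 against 3 UMIs, had an interval of -1.75 to 3.30. In the Csf1r gate 5 of 8 members kept the direction of their ratio between the libraries. C3 did not (lowest -0.24, as the mean of single-cell CPM), nor did Clu (-1.85) and Serping1 (-0.046), both without the cells with at least 2 Dcn UMIs. Between the gates 8 of 8 members kept their direction in the aged and 7 of 8 in the young library, where Cfb turned to -0.51 after thinning, on 2 and 7 UMIs.

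The count of members at least 2-fold higher in the aged Csf1r gate moved from 3 to 7 with TMM scaling, DESeq2 size factors or the mean of single-cell CPM. It moved to 6 with at least 2 Csf1r UMIs, a filter of 1000 genes and 10% mitochondrial UMIs, thinning, or other Csf1r cells, to 5 with all barcodes, and to 0 without the cells with at least 2 Dcn UMIs, where the lower count moved from 0 to 1. The stromal count of 5 moved to 3 in Dcn-only and to 3 in Chad-only cells. TMM added 0.22 to every ratio of the Csf1r gate, -0.014 to those of the stromal gate, and -0.043 aged and 0.19 young to the stromal over Csf1r ratios. Where scaling did not set a value by construction, the cause of a move was not tested. No paired analysis was possible because each group is 1 library.

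Few cells limit Chad-only values (11 aged cells), and the stromal gate was set on Dcn, which itself differed between libraries of unequal depth. Fewer cells of a kind and less RNA per cell were separated only as far as the gates go.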
